A study of Mus musculus with 18 samples.

Results

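The ERK pathway feedback genes described here are 10 transcripts that are switched on when ERK is active, most of which act back on the pathway. They comprise the MAP kinase phosphatases Dusp4, Dusp5 and Dusp6, the Sprouty genes Spry1, Spry2 and Spry4, the Spred genes Spred1 and Spred2, and the ETS-family transcription factors Etv4 and Etv5. They were chosen by gene symbol, with earlier results of these data known, and all 10 were found among the 57180 genes of the count table. All except Spry1 were among the 14263 genes with enough counts to be tested, which left 9. The cells were L929, an established mouse fibroblast line, and 18 RNA-seq libraries were made in 6 groups of 3 independent cultures. The study asked how loss of aspartate changes the response of cells to cytosolic DNA.

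All groups were wild-type L929 cells. Mock cells received the solvent DMSO. AOA cells received 0.5 mM aminooxyacetic acid, an inhibitor of aminotransferases, the enzymes that make aspartate among other amino acids. AOA+Asp cells received 0.5 mM AOA with 20 mM aspartate. HT-DNA cells were transfected with herring testis DNA, a ligand of the DNA sensor cGAS, at 0.5 μg/ml for 6 h by lipofection. HT-DNA+AOA cells received 0.5 mM AOA 1 h before the DNA, and HT-DNA+AOA+Asp cells received 20 mM aspartate as well. No group received aspartate alone, so a change in a group with AOA and aspartate cannot be told apart from one of aspartate by itself. Whether Mock cells were exposed to the transfection reagent, and how long AOA was present without HT-DNA, is not given in the sources used here.

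Growth factor receptors activate Ras, Raf, MEK and ERK in turn, and ERK then induces genes that restrain the same cascade. The nuclear phosphatases DUSP4 and DUSP5 and the cytoplasmic phosphatase DUSP6 remove phosphate from ERK, Sprouty proteins act between the receptor and Raf, and Spred proteins bind neurofibromin and hold Ras inactive. ETV4 and ETV5 are transcription factors that respond to FGF and ERK signalling, and the mRNAs of these genes are often read as a record of ERK output, although each is also controlled by other inputs.

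Libraries held 17901546 to 24057284 counts, with a median of 20385793, and every replicate pair differed by more than counting error. The HT-DNA+AOA replicates differed most, up to 62.4 times the counting variance between replicates 1 and 3. Among the fibroblast markers, 8 of 11 were tested. Vim and S100a4 were abundant, whereas Thy1, Dcn and Lum were at or near 0. The summed level of this list was 5332 to 5786 CPM in Mock, 5622 to 6193 in AOA, 5539 to 5819 in AOA+Asp, 6357 to 6920 in HT-DNA, 4785 to 6445 in HT-DNA+AOA and 5551 to 5592 in HT-DNA+AOA+Asp. CPM are counts relative to TMM-scaled library size, as edgeR's cpm function gives them. Of the leukocyte markers, Ptprc and Adgre1 were at 0 in every library and 2 of 6 were tested, with a summed level of 110.8 to 156.1 CPM that was almost wholly Cd68. None of the 5 epithelial or 3 endothelial markers was tested. The part of these differences in the results was not tested, and in bulk RNA fewer cells with a transcript and less of it per cell cannot be told apart.

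The genes differed widely in level. Per length of all annotated exons of a gene together (TPM, with exons from GENCODE vM21), Etv5 was at 100.1 ± 3.16 TPM in Mock (SD, n = 3) and Etv4 at 86.4 ± 1.29. The length of the transcripts expressed in these cells was not used. The phosphatases followed at 74.3 ± 2.60 TPM for Dusp4, 59.7 ± 2.76 for Dusp6 and 25.1 ± 0.168 for Dusp5. Spred2 stood at 62.5 ± 3.93 TPM, Spry2 at 44.3 ± 3.80, Spred1 at 38.7 ± 1.56 and Spry4 at 8.64 ± 1.09. Spry1 had 0 counts in all 18 libraries, which allows at most 3 counts in any library (0.125 to 0.168 CPM on unscaled totals).

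RefSeq promoter windows (GRCm38.p6, 250 bases before to 50 after a start) were used for 7 of the 10 genes, in 8 windows. None was used for Dusp4, Spry4 or Etv4. The selection of windows left a chromosome out, so RefSeq may hold a window for a gene without one here. The 250 bases before the start are shown for Dusp5, the gene with the widest range, for Dusp6, and for Spred1 and Spred2, which moved oppositely to Dusp5. Capitals mark matches to the 5 motifs searched on both strands.
Dusp5, chr19:53528895-53529144, plus strand: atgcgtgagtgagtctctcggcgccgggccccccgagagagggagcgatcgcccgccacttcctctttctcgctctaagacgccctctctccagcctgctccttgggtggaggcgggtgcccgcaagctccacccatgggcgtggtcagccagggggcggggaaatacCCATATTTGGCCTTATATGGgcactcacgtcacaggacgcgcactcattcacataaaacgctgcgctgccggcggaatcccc
Dusp6, chr10:99262981-99263230, plus strand: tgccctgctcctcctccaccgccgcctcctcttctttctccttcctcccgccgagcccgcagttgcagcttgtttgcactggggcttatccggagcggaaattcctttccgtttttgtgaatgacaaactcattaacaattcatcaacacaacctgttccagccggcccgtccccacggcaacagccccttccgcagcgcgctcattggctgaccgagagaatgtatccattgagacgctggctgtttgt
Spred1, chr2:117120821-117121070, plus strand: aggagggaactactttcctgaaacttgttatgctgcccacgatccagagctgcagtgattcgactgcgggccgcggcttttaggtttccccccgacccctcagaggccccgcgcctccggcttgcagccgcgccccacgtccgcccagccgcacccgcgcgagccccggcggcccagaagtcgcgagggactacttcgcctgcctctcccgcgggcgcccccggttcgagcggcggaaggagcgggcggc
Spred2, chr11:19924192-19924441, plus strand: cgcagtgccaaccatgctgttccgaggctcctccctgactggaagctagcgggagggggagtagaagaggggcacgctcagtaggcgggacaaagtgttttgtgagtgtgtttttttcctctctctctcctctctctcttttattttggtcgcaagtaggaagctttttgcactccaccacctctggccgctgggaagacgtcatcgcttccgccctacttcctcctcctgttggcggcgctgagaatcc

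The motifs were the CArG box, the site of serum response factor, the AP-1 site TGANTCA, the form CCGGAA of the ETS site, the cAMP response element TGACGTCA and the C/EBP-ATF composite TGATGNAA. Dusp5 held 2 adjacent CArG matches, at -82 to -73 and -72 to -63 from the start. Of 32851 windows in all, 1.63% held a CArG box and 6 windows (0.018%) held at least 2. Spry2 held the ETS letters downstream of its start, a match found in 14.9% of windows. The windows of Dusp6, Spred1, Spred2, Etv5 and Spry1 had no match to any of the 5 motifs. Sites spelled otherwise, such as other forms of the ETS site, were not searched for. A window without a match is therefore not shown to lack such sites. AP-1 letters were found in 7.81% of all windows, cAMP response elements in 1.79% and C/EBP-ATF letters in 3.97%. These are letter matches, and no binding was measured.

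AOA alone moved the feedback genes in both directions. A gene is called higher or lower below where its adjusted p was under 0.05 in edgeR's quasi-likelihood test, adjusted over all genes tested. In AOA compared with Mock, Dusp4 and Dusp5 were higher, and Dusp6, Spry4, Spred1, Spred2 and Etv5 were lower. These were 2 and 5 of the 9 genes, where 22.4% of all genes tested were higher and 23.3% lower. Aspartate added to AOA left 2 of 9 genes higher than with AOA alone (Spred1 and Spred2, background 23.5%) and 6 lower (background 22.8%), namely Dusp4, Dusp5, Dusp6, Spry2, Etv4 and Etv5. The median log2 fold change of the 9 genes was -0.39 with AOA and -0.33 when aspartate was added to it, against 0.02 and -0.01 over all genes tested.

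Most of the feedback genes stood below Mock levels with AOA and aspartate together. In AOA+Asp compared with Mock, 8 of 9 genes were lower, where 3.95% of all genes tested were lower, and 0 of 9 were higher, where 2.52% were. Dusp6 fell most, by 0.91 on the log2 scale, followed by Dusp5, Etv5 and Spry4. The exception was Spred1, with a log2 fold change of 0.01 (95% interval -0.18 to 0.20). The median log2 fold change of all 9 genes was -0.42, against 0.01 over all genes tested. The count was 8 with DESeq2, with scaling by library totals, and with a correction for GC content and length. It was 5 without AOA+Asp replicate 1, when Spry4, Spred2 and Etv4 missed the threshold with log2 fold changes of -0.60, -0.28 and -0.36. The AOA, AOA+Asp and HT-DNA comparisons with Mock share the Mock libraries. The effect of AOA and that of aspartate added to it share the AOA libraries with opposite sign. With HT-DNA these effects share the HT-DNA+AOA libraries in the same way, so they are not independent.

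HT-DNA alone also moved the genes in both directions. Compared with Mock, Dusp5 and Etv4 were higher (2 of 9, background 24.2%), and Dusp4, Dusp6, Spry2, Spred1 and Spred2 were lower (5 of 9, background 24.0%). In HT-DNA+AOA compared with HT-DNA, Dusp4 and Dusp5 were higher (2 of 9, background 22.8%), and Spred1, Spred2, Etv4 and Etv5 were lower (4 of 9, background 22.7%). Aspartate added on top of HT-DNA and AOA left Spred1 and Spred2 higher (2 of 9, background 23.7%) and the other 7 genes lower (background 23.9%). In HT-DNA+AOA+Asp compared with HT-DNA, Dusp4 was higher (1 of 9, background 23.2%) and 6 genes were lower (background 23.5%), with Spred1 and Spred2 not called. After correction for GC content and length 8 genes were called, since Spred1 turned from 0.11 to -0.23 (adjusted p = 0.00197). The count of 7 fell to 4 without HT-DNA replicate 3, and to 4 without HT-DNA+AOA+Asp replicate 2, and Dusp4, Spry2 and Spry4 were lost in both cases.

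**Figure D1:**
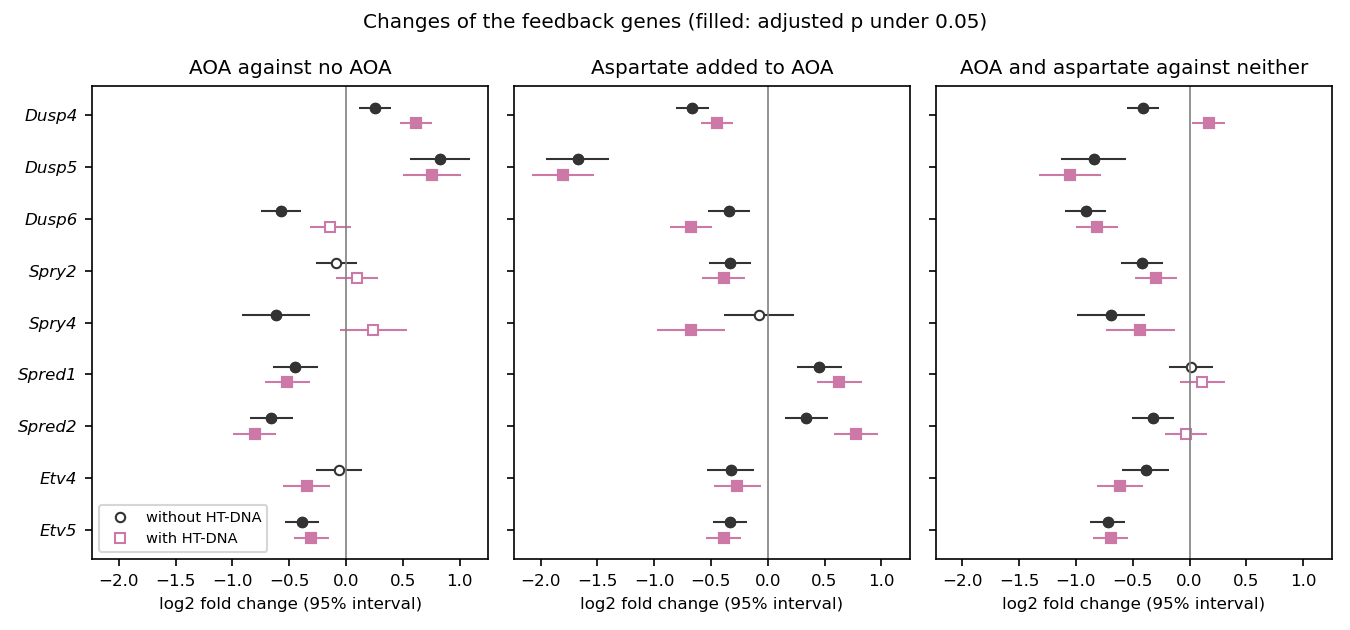
Log2 fold change of each feedback gene with its 95% interval for AOA against no AOA, aspartate added to AOA, and both compounds against neither, without HT-DNA (circles) and with HT-DNA (squares). Filled symbols passed an adjusted p of 0.05, and in the right panel 8 of 9 circles lie left of 0 and are filled.

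Dusp5, a nuclear phosphatase for ERK, had the widest range of the 9 genes, 4.79-fold between the lowest and highest group means. Its level was 19.3, 19.6 and 20.2 CPM in the Mock libraries, 40.0, 31.9 and 33.3 in AOA, and 8.26, 14.3 and 10.4 in AOA+Asp. With HT-DNA it was 33.9, 30.0 and 29.8 CPM, with HT-DNA+AOA 53.3, 50.8 and 54.0, and with HT-DNA+AOA+Asp 14.6, 15.5 and 15.2. Every AOA library was above every Mock library, and every AOA+Asp library was below. AOA raised Dusp5 by 0.83 ± 0.13 on the log2 scale (SE, adjusted p = 3.47e-05), and HT-DNA alone raised it by 0.66 ± 0.13 (adjusted p = 0.00045). AOA on top of HT-DNA added a further 0.76 ± 0.12, so HT-DNA+AOA stood highest of the 6 groups. Aspartate added to AOA lowered Dusp5 3.19-fold (adjusted p = 1.9e-08), and 3.49-fold in the presence of HT-DNA (adjusted p = 3.4e-09). It ended below the level without AOA both without HT-DNA (1.80-fold below Mock) and with it (2.07-fold below HT-DNA). AOA and HT-DNA, next in order, overlapped and did not differ beyond their spread (log2 difference 0.17, adjusted p = 0.287). The lowest pair, AOA+Asp and HT-DNA+AOA+Asp, did not overlap but was not called (0.46, 95% interval 0.17 to 0.75, adjusted p = 0.0811). That last difference was 0.69 (adjusted p = 0.00218) without AOA+Asp replicate 2, the highest of its group.

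Dusp4, the other nuclear phosphatase, moved in the same directions as Dusp5 with AOA and with aspartate, but over a 1.78-fold range. It was at 65.8, 63.9 and 64.4 CPM in Mock, 84.1, 72.5 and 74.9 in AOA, and 45.7, 48.8 and 51.5 in AOA+Asp, groups that did not overlap. With HT-DNA it was at 56.8, 57.6 and 55.0 CPM, with HT-DNA+AOA at 88.5, 85.4 and 85.8, and with HT-DNA+AOA+Asp at 65.7, 64.8 and 59.8. HT-DNA alone lowered Dusp4 by a log2 fold change of -0.20 ± 0.07 (adjusted p = 0.0231), the opposite direction to Dusp5, but without a call when Mock replicate 1 or HT-DNA replicate 1 or 3 was left out (adjusted p = 0.0738, 0.0548 and 0.0822). AOA raised it by 0.25 ± 0.07 without HT-DNA (adjusted p = 0.00498) and by 0.62 ± 0.07 with it (adjusted p = 5.52e-07). The first of these was 0.12 and not called (adjusted p = 0.171) under scaling by library totals, where the median of all genes was -0.12. AOA+Asp was below Mock (-0.41 ± 0.07), whereas HT-DNA+AOA+Asp was above HT-DNA (0.17 ± 0.07, adjusted p = 0.0498, and 0.0581 with the replicate number as a block). That last call was lost without any 1 of the HT-DNA libraries or HT-DNA+AOA+Asp replicate 1 or 2 (0.14 to 0.17, adjusted p from 0.076 to 0.157). Dusp4 was also the one gene of the 9 that edgeR called between the groups with both compounds. It was 0.38 ± 0.07 higher in HT-DNA+AOA+Asp than in AOA+Asp (adjusted p = 0.00239). This was 1 of 9 higher where 1.93% of all genes were, and 0 of 9 lower where 1.52% were. DESeq2 called 4 of 9, and the share of all genes it called was not computed.

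Dusp6, an ERK-selective phosphatase of the cytoplasm, was highest in Mock. Its level was 58.5, 61.6 and 58.4 CPM in Mock, 45.9, 36.8 and 37.2 in AOA, and 30.1, 33.5 and 31.1 in AOA+Asp. It was 43.2, 46.8 and 44.2 CPM with HT-DNA, 43.2, 40.8 and 38.0 with HT-DNA+AOA, and 25.7, 23.6 and 27.2 with HT-DNA+AOA+Asp. No treated library reached a Mock library. AOA lowered Dusp6 by -0.57 ± 0.09 (adjusted p = 2.76e-05) and HT-DNA lowered it by -0.41 ± 0.09 (adjusted p = 0.000836), both on the log2 scale. Unlike Dusp4 and Dusp5, it went down again when aspartate was added to AOA from a level already below Mock, by -0.34 ± 0.09 without HT-DNA and -0.67 ± 0.09 with it. Groups with both compounds were 1.88-fold below Mock and 1.75-fold below HT-DNA. AOA on top of HT-DNA gave -0.14 (95% interval -0.32 to 0.04, adjusted p = 0.21), and -0.22 (adjusted p = 0.0227) after correction for GC content and length. HT-DNA, HT-DNA+AOA and AOA stood next to each other in the middle of the order, and neighbours among them were not called different.

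**Figure D2:**
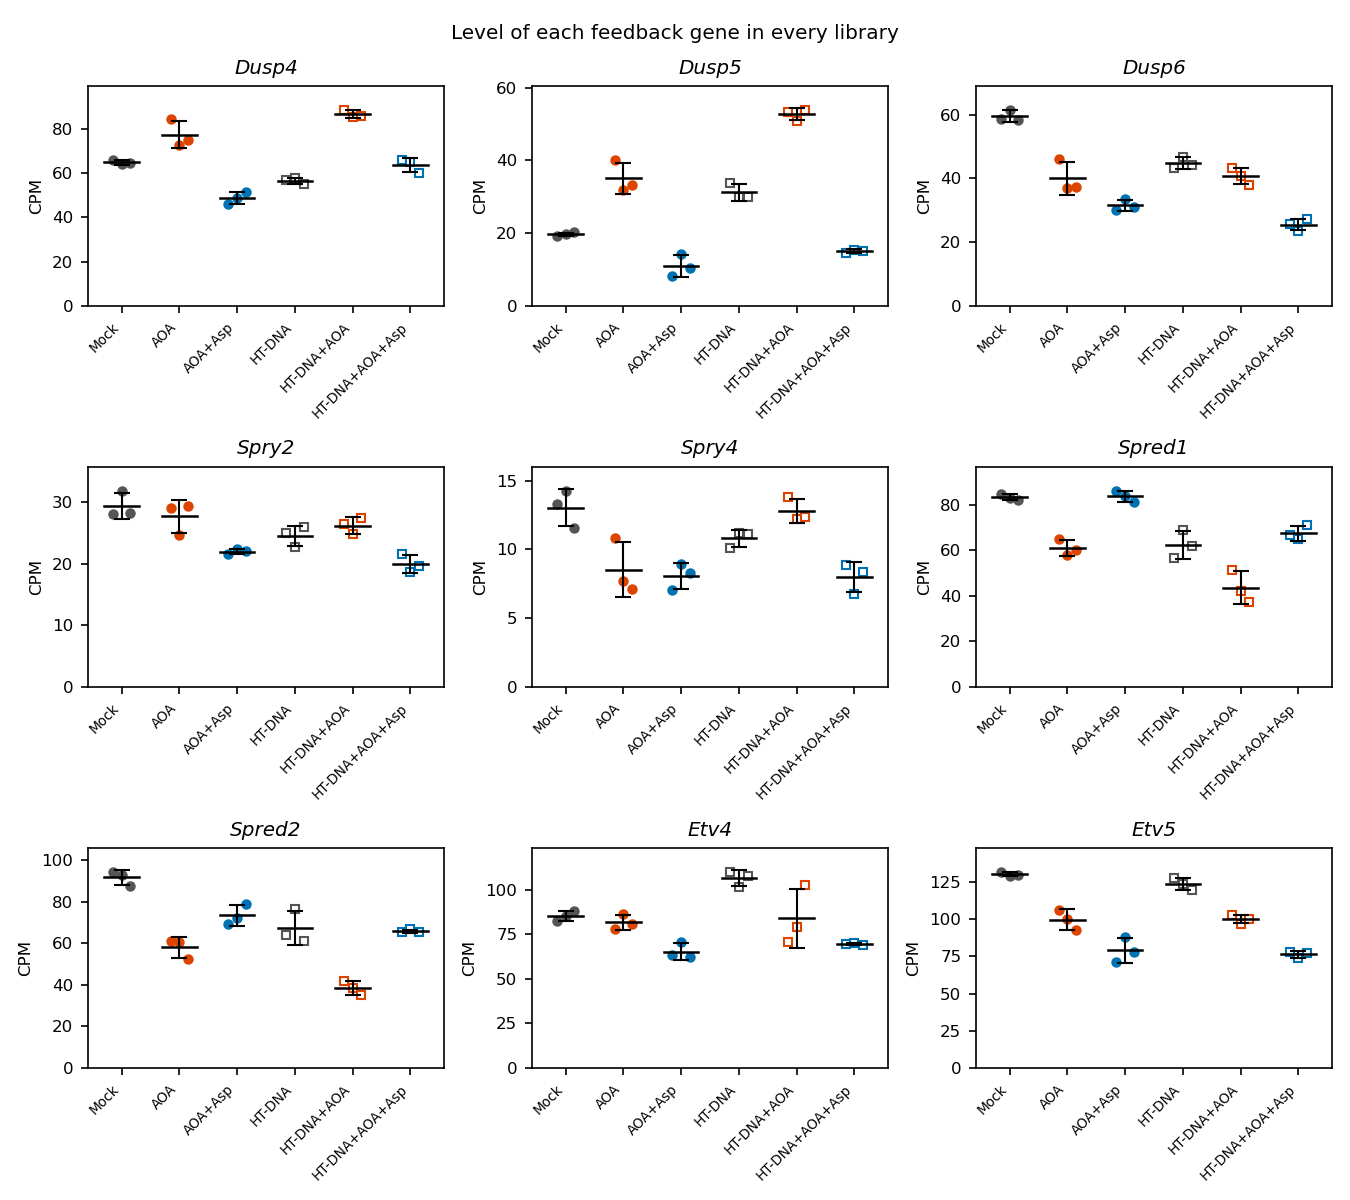
Level in CPM of each tested feedback gene in every library, by group, with the group mean and SD (n = 3). Filled circles are groups without HT-DNA and open squares groups with it, and Dusp5 runs from 11.0 CPM in AOA+Asp to 52.7 CPM in HT-DNA+AOA.

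Spry2 and Spry4 block signalling from receptor tyrosine kinases upstream of Raf. Spry2 had the narrowest range of the 9 genes, 1.47-fold. It was at 28.1, 31.9 and 28.1 CPM in Mock, 29.0, 24.6 and 29.4 in AOA, and 21.5, 22.3 and 22.0 in AOA+Asp. AOA gave a log2 fold change of -0.09 (95% interval -0.27 to 0.10), and the libraries overlapped. It was lower in AOA+Asp than in Mock (-0.42 ± 0.09, adjusted p = 0.00595) and in HT-DNA than in Mock (-0.26 ± 0.09, adjusted p = 0.0193, and 0.107 without Mock replicate 2 or 0.0888 without HT-DNA replicate 2). With HT-DNA+AOA it stood at 26.4, 24.7 and 27.4 CPM, and aspartate lowered it to 21.6, 18.7 and 19.6 (-0.39 ± 0.09, adjusted p = 0.00153).

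Spry4, the least abundant gene that was tested, responded to AOA without HT-DNA but not measurably with it. Its level was 13.3, 14.3 and 11.6 CPM in Mock and 10.8, 7.68 and 7.09 in AOA, which did not overlap (-0.61 ± 0.14, adjusted p = 0.00172). With HT-DNA the levels were 10.1, 11.2 and 11.1 CPM, and with HT-DNA+AOA 13.8, 12.2 and 12.3 (0.24, 95% interval -0.05 to 0.54, adjusted p = 0.175). Aspartate added to AOA gave 7.04, 8.91 and 8.30 CPM, a log2 fold change of -0.08 (95% interval -0.39 to 0.23), whereas with HT-DNA it gave 8.85, 6.78 and 8.38, a fall of -0.68 ± 0.14 (adjusted p = 0.000858). HT-DNA+AOA was 0.58 ± 0.14 above AOA (adjusted p = 0.0105), a difference that was not called without AOA replicate 2 (0.51, adjusted p = 0.0703), without AOA replicate 3 (0.47, adjusted p = 0.0509) or when only the 2 groups' libraries were fitted (0.60, adjusted p = 0.131).

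Spred1 and Spred2 took the opposite course to Dusp4 and Dusp5, falling with AOA and rising when aspartate was added. The fall and the rise share the AOA libraries, or with HT-DNA the HT-DNA+AOA libraries, and are not independent. Spred1 was at 84.7, 83.3 and 82.1 CPM in Mock, 65.1, 58.2 and 60.4 in AOA, and 86.4, 83.8 and 81.4 in AOA+Asp. With HT-DNA it was at 56.7, 68.8 and 62.2 CPM, with HT-DNA+AOA at 51.6, 42.0 and 37.4, and with HT-DNA+AOA+Asp at 66.6, 65.0 and 71.3. The AOA+Asp and Mock libraries overlapped, and all AOA libraries lay below both. AOA lowered Spred1 by -0.45 ± 0.09 (adjusted p = 0.000729) and aspartate raised it by 0.45 ± 0.09 (adjusted p = 0.000645), and with HT-DNA these values were -0.52 ± 0.10 and 0.63 ± 0.10. HT-DNA lowered it by -0.41 ± 0.09 without AOA and by -0.49 ± 0.10 with AOA.

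Spred2 was at 94.6, 92.8 and 87.9 CPM in Mock, 61.3, 60.8 and 52.3 in AOA, and 69.4, 72.2 and 79.0 in AOA+Asp. Its level was 63.8, 76.7 and 61.3 CPM with HT-DNA, 41.9, 38.7 and 34.9 with HT-DNA+AOA, and 65.6, 66.8 and 65.3 with HT-DNA+AOA+Asp. By group mean, HT-DNA+AOA was thus the lowest group for both Spred genes and the highest for Dusp4 and Dusp5. For Dusp4 it was not called above AOA, the next group (0.17, adjusted p = 0.118 in edgeR and 0.0362 in DESeq2). AOA lowered Spred2 by -0.66 ± 0.09 (adjusted p = 9.23e-06) and by -0.80 ± 0.09 with HT-DNA (adjusted p = 7.91e-07). Aspartate raised it by 0.34 ± 0.09 and 0.77 ± 0.09, to a level still below Mock without HT-DNA (-0.32 ± 0.09, adjusted p = 0.0353) and at the HT-DNA level with it (-0.03, 95% interval -0.22 to 0.16). The fall below Mock lost its call when any of the 3 Mock libraries was left out (log2 fold change -0.35 to -0.30, adjusted p from 0.0581 to 0.137), and also without AOA+Asp replicate 1 or 2.

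Etv5, the most abundant of the genes per length of annotated exons in Mock, fell stepwise with AOA and again with aspartate. It was at 132, 129 and 130.2 CPM in Mock, 106, 100.4 and 92.5 in AOA, and 71.4, 88.2 and 78.1 in AOA+Asp. With HT-DNA it was at 128, 124 and 119.5 CPM, with HT-DNA+AOA at 103, 97.1 and 100.4, and with HT-DNA+AOA+Asp at 78.3, 73.8 and 77.5. The 3 groups did not overlap, either without or with HT-DNA. AOA gave -0.39 ± 0.07 (adjusted p = 0.000258) and aspartate a further -0.33 ± 0.07 (adjusted p = 0.00109), and with HT-DNA the values were -0.31 ± 0.07 and -0.39 ± 0.07. HT-DNA by itself gave -0.08 (95% interval -0.23 to 0.07, adjusted p = 0.396), and the HT-DNA libraries, although below the Mock libraries, were not called lower.

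Etv4, the nearest relative of Etv5 among the genes, was with Dusp5 the only one of the 9 called higher with HT-DNA. It was at 82.4, 85.6 and 87.9 CPM in Mock, 78.1, 86.4 and 80.8 in AOA, and 63.3, 70.7 and 62.1 in AOA+Asp. With HT-DNA it was at 110.4, 102 and 108 CPM, with HT-DNA+AOA at 70.5, 79.1 and 103, and with HT-DNA+AOA+Asp at 69.8, 70.4 and 69.2. HT-DNA raised it by 0.32 ± 0.10 (adjusted p = 0.0111), and AOA on top of HT-DNA lowered it by -0.35 ± 0.10 (adjusted p = 0.00728), although HT-DNA+AOA replicate 3 lay within the HT-DNA range. After correction for GC content and length these were 0.05 (adjusted p = 0.477) and -0.04 (adjusted p = 0.549), and neither was called. Aspartate with HT-DNA and AOA gave -0.27 ± 0.10 (adjusted p = 0.0324), or -0.10 (adjusted p = 0.29) without HT-DNA+AOA replicate 3, and was also not called without any 1 of the HT-DNA+AOA+Asp libraries (adjusted p from 0.0691 to 0.0815). Added to AOA without HT-DNA it gave -0.32 ± 0.10 (adjusted p = 0.0116, and 0.0545 without AOA replicate 2 or 0.0535 without AOA+Asp replicate 3). The groups with both compounds were lower than Mock (-0.39 ± 0.10, adjusted p = 0.0232) and lower than HT-DNA (-0.61 ± 0.10, adjusted p = 0.000137), the former without a call when any Mock library was left out.

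Whether HT-DNA altered the effect of AOA was tested as an interaction, the log2 effect of AOA with HT-DNA minus that without it, over groups that share no library. It was called for 3 of 9 genes, where 15.5% of all genes tested were called. The interaction was 0.86 ± 0.20 for Spry4 (adjusted p = 0.00968), 0.43 ± 0.12 for Dusp6 (adjusted p = 0.0233) and 0.36 ± 0.10 for Dusp4 (adjusted p = 0.0178), all more positive with HT-DNA. For Dusp5 it was -0.07 (95% interval -0.44 to 0.30), for Spred1 -0.07 (-0.35 to 0.21) and for Spred2 -0.15 (-0.41 to 0.12). The count of 3 was 1 without AOA replicate 2 or without HT-DNA replicate 3, Spry4 in both cases, since Dusp4 (0.32 and 0.34) and Dusp6 (0.38 and 0.43) missed the threshold. Dusp6 also missed it without AOA replicate 3, Mock replicate 2, HT-DNA replicate 1 or HT-DNA+AOA replicate 2 (0.39 to 0.43, adjusted p from 0.0505 to 0.0611). The count was 4 without HT-DNA+AOA replicate 3, when Etv4 joined them at -0.45 (adjusted p = 0.00122), and 4 after correction for GC content and length, when Spred1 joined them at -0.36 (adjusted p = 0.0022).

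**Figure D3:**
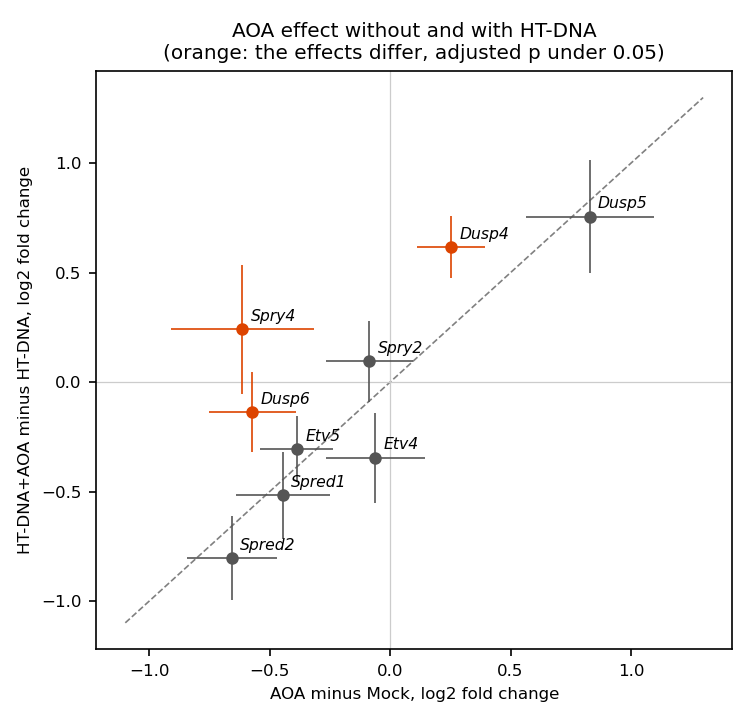
Log2 fold change of each gene with AOA without HT-DNA (horizontal) and with HT-DNA (vertical), with 95% intervals and a dashed line of equal effects. Spry4, Dusp6 and Dusp4 (orange) lie above the line, with interactions of 0.86, 0.43 and 0.36 on the log2 scale.

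The effect of aspartate added to AOA was not called different with and without HT-DNA for any of the 9 genes in edgeR. This was 0 of 9, where 1.05% of all genes tested were called. At an unadjusted edgeR p under 0.05 there were 4 of 9, and DESeq2 called 1 of 9. The shares of all genes beside those counts were not computed, so no background is given for them. The gene called by DESeq2 was Spred2, with an interaction of 0.44 ± 0.13 (adjusted p = 0.127 in edgeR and 0.049 in DESeq2). For the effect of AOA and aspartate together, Dusp4 was the single gene called (1 of 9, background 6.25%), at 0.58 ± 0.10 (adjusted p = 0.00399), as it was below Mock without HT-DNA and above HT-DNA with it. HT-DNA added to AOA cells left Dusp5 and Spry4 higher (2 of 9, background 6.46%) and Spred1 and Spred2 lower (2 of 9, background 6.98%). When only the libraries of HT-DNA+AOA and AOA were fitted, Dusp5 and Spred2 were called and Spry4 and Spred1 were not.

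Genes with the most similar course were sought for 1 gene of each family, by the distance between group means of log2 CPM over the 6 groups among 14263 genes tested. For Dusp6 they were Gm26642 (distance 0.176), AU018091 (0.212) and Egr3 (0.29), the last another ERK target at only 0.448 to 1.17 CPM. For Spred1 they were Kmt2d (0.0888), Dnmt3a (0.0996) and Ddx6 (0.125), and for Etv4 they were Vasp (0.0553), Serinc2 (0.0952) and Tmem205 (0.103). For Spry2 they were Decr2 (0.125), Gm26852 (0.143) and Myadm (0.156). Within the set, Dusp6 and Etv5 were nearest to each other (0.346), and so were Spred1 and Spred2 (0.307). By rank among 14262 genes, the nearest other feedback gene was 6th for Dusp6 and 41st for Etv5, 51st for Spred2 and 204th for Spred1, 74th for Spry4, 854th for Spry2, 920th for Etv4, 1380th for Dusp5 and 2448th for Dusp4. These distances describe 6 means, and genes that vary little are near many others.

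The other genes of the pathway were counted from lists chosen by function. Among 19 tested ERK-induced target genes, 0 were higher and 12 lower in AOA+Asp than in Mock, where 3.95% of all genes tested were lower (median log2 fold change -0.48). Egr1, an immediate early transcription factor, fell by 2.38 on the log2 scale, Phlda1 by 0.86, Fosl1 by 0.52 and Ccnd1, which encodes cyclin D1, by 0.33. Fos itself gave -0.90 (adjusted p = 0.175) and Ier3 -0.15 (adjusted p = 0.305). With AOA alone 2 were higher and 10 lower (background 22.4% and 23.3%), with Myc up by 1.95 and Egr1 at -2.82. With HT-DNA 9 were higher and 2 lower (background 24.2% and 24.0%), with Srf, which encodes serum response factor, up by 1.05, Ccnd1 by 0.67 and Fosl1 by 0.67. In HT-DNA+AOA compared with HT-DNA, 3 were higher and 10 lower (background 22.8% and 22.7%). In HT-DNA+AOA+Asp compared with HT-DNA, 1 was higher and 14 were lower (background 23.2% and 23.5%), with Fos at -2.03, Fosl1 at -0.91 and Phlda1 at -0.82. Fos was scarce, at 1.06 CPM in HT-DNA and 0.25 CPM in HT-DNA+AOA+Asp.

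The cascade itself was counted in the same way. Of 20 tested genes of the Ras, Raf, MEK and ERK cascade and its adaptors, 1 was higher than Mock in AOA+Asp and 0 were lower, near the 2.52% and 3.95% of all genes tested. The 1 was Map2k1, which encodes MEK1 (log2 fold change 0.26). With HT-DNA 4 were higher and 11 lower (background 24.2% and 24.0%), from Hras at 0.67 to Sos2, a Ras exchange factor, at -0.85. With AOA 1 was higher and 7 lower (background 22.4% and 23.3%). In AOA+Asp edgeR called 0 of 6 tested growth factor ligands (1 at an unadjusted p under 0.05, of 16 in the list) and 0 of 9 tested receptors (1 at an unadjusted p under 0.05, of 14). With AOA alone 4 of the 6 ligands were higher (background 22.4%), led by Fgf21 at 1.78, a stress-induced hormone at 0.6 CPM in Mock and 2.07 CPM in AOA. Pdgfra, the receptor for PDGF-A, was lower with AOA (-0.76) and with HT-DNA (-1.11), and Met, the receptor for HGF, was higher with AOA (0.54).

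Among the 9 other MAP kinase phosphatases, 5 were higher and 2 lower with AOA (background 22.4% and 23.3%). Dusp10, which acts mainly on p38 and JNK, rose from 4.37 ± 0.466 to 11.1 ± 0.593 CPM (log2 fold change 1.34), and Dusp2 fell by 0.73. Dusp10 stood at 4.52 ± 0.472 CPM in AOA+Asp, at 0.05 relative to Mock (adjusted p = 0.876). In AOA+Asp, 1 was higher and 3 were lower (background 2.52% and 3.95%), and the 1 was Dusp1, an immediate early phosphatase, at 0.55 ± 0.10 (adjusted p = 0.00256). With HT-DNA 5 were higher and 1 lower (background 24.2% and 24.0%), led by Dusp9 at 1.28. Of 8 tested genes among the other feedback inhibitors and relatives, 0 were higher and 3 lower with AOA (background 22.4% and 23.3%), and 0 higher and 4 lower in AOA+Asp (background 2.52% and 3.95%). Socs3, a feedback inhibitor of cytokine receptors, gave the largest falls in both, from 46.2 CPM in Mock to 15.5 in AOA and 19.6 in AOA+Asp. Etv1, which with Etv4 and Etv5 makes up the PEA3 subfamily, fell by 1.62 with HT-DNA.

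**Figure D4:**
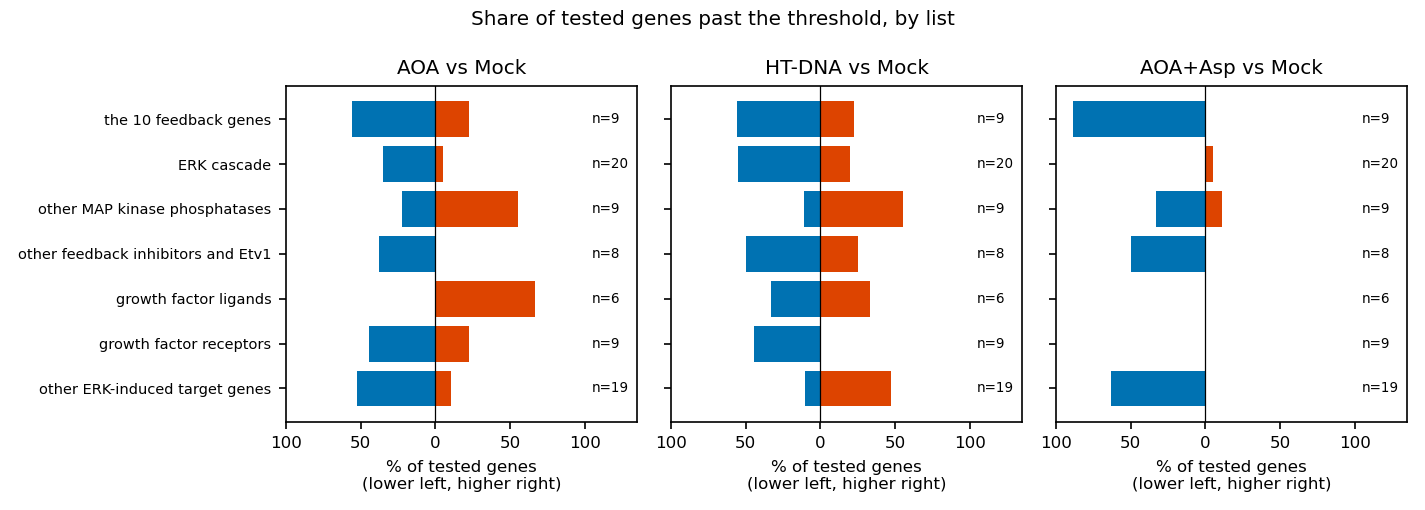
Percent of the tested genes of each list that were lower (blue, left) or higher (orange, right) than Mock, with the number tested at the right of each bar. In AOA+Asp, 8 of 9 feedback genes and 12 of 19 other ERK target genes were lower, where 3.95% of all genes tested were.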

How the data were processed

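RNA-seq of L929 cells covered 6 groups of 3 independent cultures, assigned from the sample labels. Majorbio sequenced the RNA after TRIzol extraction. The aligner, counting program and genome build are not given in the sources used here. The authors deposited estimated counts (expected counts) of reads per gene with no scaling, and 11.6% of these had decimals. The design assumed whole counts, so values were rounded. The authors' group means in the same table were not used.

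Counts were fitted in R 4.3.3 with edgeR 4.0.16 (filterByExpr, minimum count 10 and minimum total 15, TMM, robust quasi-likelihood model over all 18 libraries), and p-values were adjusted by the Benjamini-Hochberg method over all 14263 genes tested. Intervals are 95% intervals of the model. Background shares are those of the main edgeR calls, and none was computed for unadjusted p-values or for the alternatives. No batch is given in the labels. The steps were tested on simulated data. Totals of 17901546 to 24057284 counts limit precision for Spry4, and intervals from counts of 0 cover counting error only.

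Members and lists were chosen with earlier results of these data known. Every member could be named in any comparison. From each list the called genes with the largest rise and fall in a comparison could be named, and Dusp1, Fos, Egr1, Fosl1, Ier3, Phlda1 and Ccnd1 in any. The symbol Spry3 was not matched in the table. GENCODE vM21, which may not be the authors' release, gave GC content and length for 97.5% of genes tested, for TPM and for a loess correction (span 0.3). Sequences came from RefSeq. Alternatives were DESeq2 1.42.0, RLE, library totals, 2 other filters, fits to the compared libraries alone, a stricter call that also asks for an absolute log2 change of 1, the replicate block, the GC and length correction, and leaving out each library.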

Additional observations from a re-analysis of the deposited data

Results flagged for a closer look

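The AOA effect differed with and without HT-DNA for 3 feedback genes by the test of the difference itself. The difference of log2 effects was 0.86 for Spry4, 0.43 for Dusp6 and 0.36 for Dusp4, where 15.5% of all genes tested passed the same test. The effect of AOA and aspartate together differed with and without HT-DNA for Dusp4, by 0.58, where 6.25% of genes passed. Groups of 3 libraries are too small for a test of single outlying libraries.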

How the results depend on the processing

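Of 1674 alternative values of a feedback gene's log2 fold change, 1555 kept their direction and side of the threshold, 56 lost a call, 23 gained one, 39 changed sign near 0 without a call, and 1 turned, namely Spred1 in HT-DNA+AOA+Asp against HT-DNA, at 0.11 and -0.23 after the GC and length correction, for a cause that was not tested. When calls also needed an absolute log2 change of 1, the number of genes called was 1 (Dusp5) for aspartate added to AOA without and with HT-DNA and for both compounds against HT-DNA alone, and 0 for the other comparisons and interactions. With only the libraries compared, the count was 2 for HT-DNA+AOA against AOA, 3 for HT-DNA+AOA+Asp against AOA+Asp, 1 for the interaction of AOA with HT-DNA and 3 for that of both compounds. For HT-DNA+AOA+Asp against AOA+Asp it was also 3 after the GC and length correction, 3 without the filter and 4 with DESeq2, and DESeq2 called 1 gene for the interaction of aspartate. These causes were not tested. Leaving out 1 library at a time gave 7 to 7 genes for AOA, 7 to 8 for aspartate added to AOA, 5 to 7 for AOA+Asp against Mock, 6 to 7 for HT-DNA, 6 to 6 for HT-DNA+AOA against HT-DNA, 8 to 9 for aspartate added to HT-DNA+AOA, 4 to 7 for HT-DNA+AOA+Asp against HT-DNA, 3 to 4 for HT-DNA+AOA against AOA, 1 to 2 for HT-DNA+AOA+Asp against AOA+Asp, and 1 to 4, 0 to 1 and 1 to 2 for the interactions of AOA, of aspartate and of both. Without HT-DNA+AOA replicate 1, Spred2 was called for the interaction of aspartate (0.50, adjusted p = 0.0311). Under scaling by library totals the median of all genes was -0.12 for AOA and for HT-DNA and 0.10 for the interaction of both compounds.

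Deviations of same-numbered libraries were weakly correlated in general (-0.084 to 0.218). Such correlations cannot exclude that a number marks a shared day. The sources do not say that it does, so the main fit did not pair the samples. In HT-DNA+AOA against AOA each number correlated best with its own (0.218, 0.071 and 0.11), as a hint from the data. With the replicate number as a block, the count of genes called was 6 in place of 7 for HT-DNA+AOA+Asp against HT-DNA, through Dusp4 (adjusted p = 0.0581), and no other call of these genes changed.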
